A study of Mus musculus with 8 samples.

Results

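DNA methylation was described at 47 genes of bone morphogenetic protein (BMP) and transforming growth factor β (TGF-β) signalling, out of 33073 autosomal protein-coding and lncRNA genes of the mouse. The genes were taken by name in 5 roles: 19 ligands, 10 receptors, 6 antagonists and other extracellular regulators including Kcp, 8 Smads and 4 Id target genes. The class of 6 is called antagonists below for short, although Kcp enhances BMP signalling. A gene's region was its body plus 5 kb at each end in mm10 coordinates. A CpG was used where it had at least 10 reads, both strands added, in all 8 libraries. That left 2279 of 441994 CpGs in 45 of the 47 genes, while Bmp5 and Gdf5 had none. Neighbouring CpGs were joined into 1 kb tiles with at least 3 CpGs, of which 138 of 36513 lay in member regions.

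All cells were heterozygous for the transgene Tg(Six2-EGFP/cre), which puts EGFP and Cre under the Six2 promoter, and were nephron progenitors, the stem cells of the nephron, sorted by green fluorescence from kidneys of outbred CD1 embryos at E17.5. The embryos came from wild-type CD1 females mated with transgenic males, all 8 to 10 weeks old. In the calorie-restricted group (CRD, 4 libraries) dams received 70% of the average daily intake once a day, and in the unrestricted group (URD, 4 libraries) food was not limited in pregnancy. The sort selects cells in which the Six2 promoter is active, embryos were not separated by sex, and the labels do not say how many embryos or litters one library holds. P-values therefore speak only about the spread between libraries, which may be partly technical. In the model this spread was moderated across all units, so it is not that of one CpG or tile alone. Reduced representation bisulfite sequencing (RRBS) sequences fragments cut out of CpG-rich DNA by a restriction enzyme. The methylation level is the percent of reads that still carry cytosine at a CpG after bisulfite treatment. The assay gives no RNA. A library pools many cells, so a lower level in every cell and a smaller share of methylated cells cannot be told apart.

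Depth, summed over all cytosines of a library, was 16045992 to 32054622 in CRD and 20863822 to 37305007 in URD. The median was 20 to 39 reads per shared CpG in CRD libraries and 26 to 44 in URD libraries. These sums, and the reads given for tiles and windows, count a read at each cytosine or CpG it covers. The sorted identity could be checked only through gene starts. The 4 measured start windows of progenitor markers had 0.0275 to 0.0664% methylation, with Six2 the highest. Starts of other cell types' markers were also low: 0.212% for Tal1 of blood and up to 4.02% for Pdgfrb of stroma, so these levels do not tell the cell types apart.

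BMP and TGF-β ligands are secreted dimers that bring type I and type II receptor kinases together, and the type I receptor then phosphorylates Smad proteins that enter the nucleus with Smad4. Antagonists hold ligands away from receptors, and Id genes are direct targets of BMP Smads. In the kidney, Bmp7 keeps nephron progenitors alive and prepares them for differentiation, Grem1 limits Bmp4 so that the ureteric bud can grow out, and Kcp (kielin/chordin-like protein) is a secreted regulator that in mice enhances BMP signalling and dampens TGF-β signalling.

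The starts of these genes were CpG-rich and almost free of methylation. RefSeq (GRCm38.p6) gave the 300 bp around the start, 250 before and 50 after it, for 33 of the 47 genes. In some, such as Bmpr1b and Inhba, the given start lies inside the gene body rather than at its outer end. Start windows and distances from the start use the given start. The median member start held 27 CpGs, against 7 for all 25748 genes with such a sequence. The median GC content was 68% in members, against 53% in all genes, and the ratio of observed to expected CpGs was 0.762, against 0.395. RRBS covered 146 CpGs in the starts of 16 members, and 124 of them had no methylated read in any library. The 4 sequences shown are those of the gene with the called CpGs (Kcp), the pair with the most methylated start windows of known position (Bmp8b and Bmp8a) and a Smad of the BMP branch with 16 measured CpGs (Smad1). They run 5′ to 3′ in the gene's direction, and capitals mark the CpGs that RRBS measured in all 8 libraries. The Kcp start is chr6:29507903-29508202 on the minus strand, Bmp8b is chr4:123104911-123105210 on the plus strand, Bmp8a is chr4:123343203-123343502 on the minus strand and Smad1 is chr8:79399379-79399678 on the minus strand.
Kcp: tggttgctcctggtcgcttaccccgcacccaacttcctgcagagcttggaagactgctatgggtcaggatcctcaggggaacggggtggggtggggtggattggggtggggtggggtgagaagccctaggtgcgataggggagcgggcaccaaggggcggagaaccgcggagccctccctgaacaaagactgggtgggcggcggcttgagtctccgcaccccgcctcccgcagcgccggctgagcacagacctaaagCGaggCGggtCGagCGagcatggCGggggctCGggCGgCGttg
Bmp8b: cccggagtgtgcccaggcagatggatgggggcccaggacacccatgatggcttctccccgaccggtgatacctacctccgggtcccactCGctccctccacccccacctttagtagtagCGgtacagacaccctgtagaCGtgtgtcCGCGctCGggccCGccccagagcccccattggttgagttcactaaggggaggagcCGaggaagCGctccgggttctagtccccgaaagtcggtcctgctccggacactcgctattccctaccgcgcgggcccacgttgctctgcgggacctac
Bmp8a: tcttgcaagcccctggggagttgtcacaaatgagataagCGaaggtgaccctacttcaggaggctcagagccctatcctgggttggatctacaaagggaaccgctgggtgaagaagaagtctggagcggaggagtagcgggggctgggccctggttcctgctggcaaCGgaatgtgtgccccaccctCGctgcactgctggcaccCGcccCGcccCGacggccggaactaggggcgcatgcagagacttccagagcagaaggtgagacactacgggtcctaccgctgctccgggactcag
Smad1: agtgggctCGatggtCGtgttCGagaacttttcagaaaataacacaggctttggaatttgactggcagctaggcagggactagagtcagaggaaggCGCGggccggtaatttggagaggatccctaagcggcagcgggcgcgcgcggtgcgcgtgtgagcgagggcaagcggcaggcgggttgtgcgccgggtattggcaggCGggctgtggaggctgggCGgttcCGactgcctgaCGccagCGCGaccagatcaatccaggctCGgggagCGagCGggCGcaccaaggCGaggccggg
All 8 capitalised CpGs of Kcp were at 0% in all 8 libraries, at 19 to 54 reads per CpG. In Smad1, 15 of the 16 were at 0% in all libraries. Bmp8b, a ligand best known from germ cell formation, differed: none of its 9 CpGs was free of methylated reads, and the highest averaged 8.62%.

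Over the wider start window of 1000 bp before to 500 bp after the start, 34 of 37 members (91.9%) were below 1% methylation, against 86.2% of all 12625 windows. For 11 of the 37 the reference gave no strand, so the gene end richer in CpGs was taken. One of these, at Tgfb3, holds 3 CpGs at 74.1% ± 5.56 in CRD and 76.7% ± 3.23 in URD (SD, 4 libraries each), and may not be the start. Of the 35 windows that could be tested none was called at an adjusted p under 0.05, against 0.124% of all windows in the same logistic model. limma and edgeR called none either. At an unadjusted p under 0.05 the logistic model gave 1 of 35 (2.86%), against 6.95% of all windows. The one was Smad6, an inhibitory Smad, with 0% in CRD and 0.0703% ± 0.0684 in URD (adjusted p = 0.675). The Kcp window had 0.0738% ± 0.1 in CRD and 0.133% ± 0.121 in URD (adjusted p = 0.906).

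Bmp8b had the most methylated start window of known position, at 5.50% ± 0.636 in CRD and 5.05% ± 0.837 in URD (adjusted p = 0.757). Its relative Bmp8a followed at 1.64% ± 0.414 in CRD and 1.62% ± 1.18 in URD, over 7 CpGs. Bmp7 had 0.0673% ± 0.0158 in CRD and 0.0527% ± 0.0367 in URD over 57 CpGs, with at least 1282 reads per library summed over these CpGs. Tgfb2, a ligand needed for normal kidney formation, had 0.0769% in CRD and 0.0458% in URD. Bmpr1a had 0.0277% in CRD and 0.0363% in URD, Smad4 had 0.0242% in CRD and 0.0160% in URD, and Smad1 had 0.0239% in CRD and 0% in URD. At such levels a single methylated read decides the sign of a difference.

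**Figure D1:**
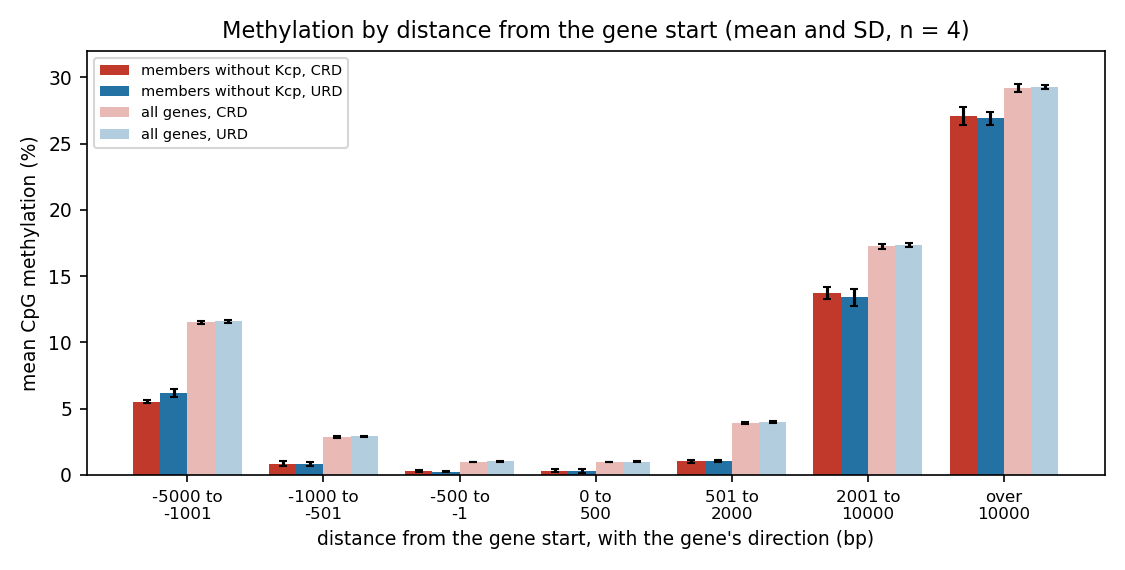
Mean CpG methylation (%) against distance from the gene start (bp, negative before the start) for the members without Kcp (dark) and for all genes (pale), each with the CRD libraries in red left of the URD libraries in blue; error bars are the SD over 4 libraries. Members were under 1% from 1000 bp before to 500 bp after the start and reached 27.1% in CRD and 26.9% in URD beyond 10000 bp, with the bars of all genes higher in every bin.

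Methylation was higher farther from the start, as the plot by distance shows. Members without Kcp averaged 0.322% ± 0.104 in CRD and 0.322% ± 0.147 in URD in the first 500 bp, and 13.7% ± 0.456 in CRD and 13.4% ± 0.616 in URD over 2000 and up to 10000 bp. In the 5 kb before the start, leaving out the last 1000 bp, 77 CpGs of 6 members had 5.53% ± 0.0934 in CRD and 6.20% ± 0.308 in URD, and over all genes the same interval had 11.5% ± 0.109 in CRD and 11.6% ± 0.110 in URD. That interval gets no test, since it was singled out after its values were seen.

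Averaged with equal weight per CpG, the diets differed by less than 0.2 points in every role but the antagonists. Ligand regions had 6.21% ± 0.228 in CRD and 6.16% ± 0.0633 in URD, and receptor regions 4.82% ± 0.298 in CRD and 4.98% ± 0.432 in URD. Smad regions had 6.55% ± 0.109 in CRD and 6.51% ± 0.0415 in URD, and Id regions 0.437% ± 0.191 in CRD and 0.531% ± 0.112 in URD. Antagonist regions had 3.17, 2.73, 2.90 and 3.57% in CRD libraries 1 to 4, and 4.05, 3.58, 6.21 and 6.59% in URD libraries 1 to 4. Each CRD value was below each URD value, but without Kcp the antagonists were at 1.49% ± 0.0565 in CRD and 1.54% ± 0.0329 in URD. All members without Kcp had 5.12% ± 0.0725 in CRD and 5.13% ± 0.0808 in URD, and all gene regions had 11.7% ± 0.114 in CRD and 11.8% ± 0.0902 in URD. Weighted by reads, the differences were -0.360 points in ligands, -0.598 in receptors and -0.540 in Smads, so that the direction in ligands and Smads turned. Without CRD library 4 the ligand difference was -0.0295 points, and without URD library 4 the receptor difference was 0.0120. These means carry no test, since the genes were chosen with results known.

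In the tiles, 123 of the 138 could be tested. The other 15, in 12 genes, held no methylated read in any library. With 3 divided by all reads as the limit, this allows levels of up to 0.0461 to 0.293% over the 8 libraries together (counting error only). The reads are summed over CpGs that can share a read, so the limits may be too low. Each of the 4 Id genes has such a tile, as have Acvr1 and Smad7. The single Id1 tile had 0 of 4113 reads methylated, summed over its 17 CpGs and the 8 libraries. Of the tested tiles 102 were below 20% (82.9%, against 60.8% of all tiles), 13 lay between 20 and 80%, and 8 were at 80% or above. No member tile was called, against 0.0177% of all tiles. At an unadjusted p under 0.05 the logistic model gave 9 of 123 (7.32%), against 6.32% of all tiles. At an adjusted p under 0.05 edgeR called 1 tile (Kcp) and limma none. The share of all tiles that edgeR called is not given here. In 3 tiles (2.44%) the groups did not overlap, against 2.26% of all tiles: Kcp, Gdf7 and Tgfb1. In all, 61 tiles were higher and 62 lower in CRD, with a median difference of -0.00227 percentage points, against -0.0116 over all tiles.

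**Figure D2:**
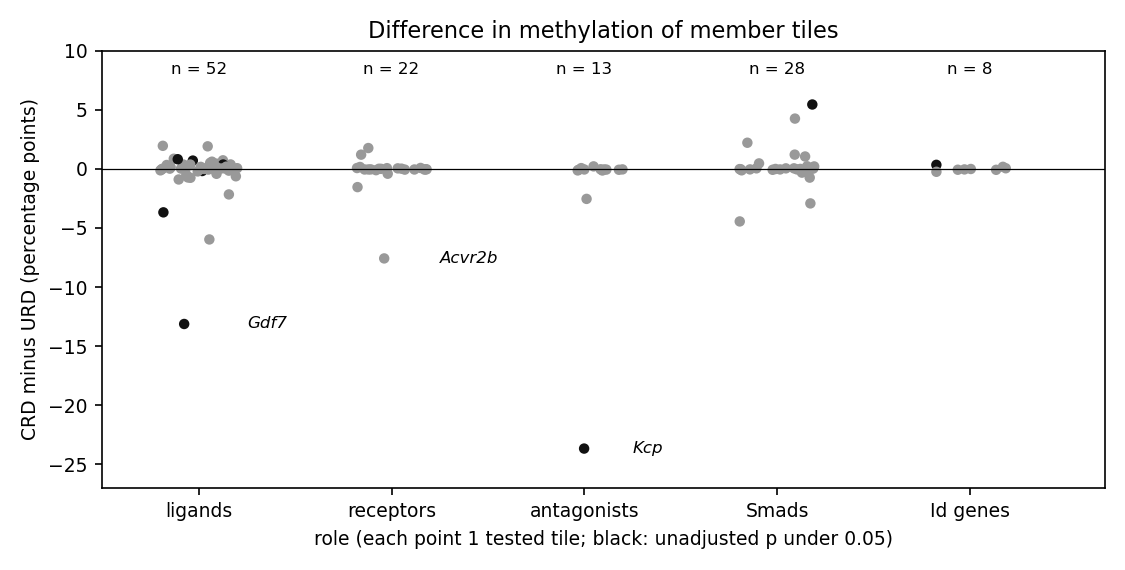
Difference in methylation, CRD minus URD, in percentage points for each of the 123 tested member tiles, by role; horizontal scatter within a role has no meaning. Most tiles lie near 0, and Kcp at -23.7, Gdf7 at -13.1 and Acvr2b at -7.58 are named.

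At single-CpG resolution, 11 of 716 tested member CpGs (1.54%) were called, against 0.0997% of all CpGs, and all 11 were lower in CRD (0.0261% of all CpGs were called lower). All 11 lay in Kcp, in a stretch of 91 bp with 12 CpGs at chr6:29496474-29496564. The 682 tested member CpGs outside Kcp gave no call with all 8 libraries. The stretch is inside the Kcp gene body, 11388 to 11478 bp downstream of the start given above. Its ends are the outermost called CpGs, and Kcp was taken with such results known. The share of member CpGs called was thus set by that choice and is no result about the members, and the mean level of the stretch is a description without a test.

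Kcp methylation across the stretch averaged 9.10, 8.51, 7.90 and 20.2% in CRD libraries 1 to 4. In URD libraries 1 to 4 it averaged 23.0, 20.3, 55.2 and 58.1%. The group means were 11.4% ± 5.85 in CRD and 39.2% ± 20.3 in URD, a difference of -27.7 percentage points. With both strands added, all CRD values were below all URD values, but CRD library 4 lay next to URD library 2. The URD libraries did not lie around one level: 2 were near 20% and 2 near 55 to 58%.

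All 12 CpGs were lower in CRD, with differences of -31.8 to -22.1 points, and in 5 of them the groups did not overlap. The smallest adjusted p, 0.000145, belonged to the CpG at 29496553, with 6.67, 0, 4.08 and 8.00% in CRD and 23.5, 17.6, 47.5 and 48.0% in URD. Next came 29496564, with 4.00, 7.41, 6.12 and 12% in CRD and 23.5, 17.6, 61.0 and 50% in URD (adjusted p = 0.000875). In both, the highest CRD library stayed below the lowest URD library. The largest difference was at 29496501, where CRD had 21.9, 10.7, 12.2 and 40.0% and URD 37.3, 35.8, 63.4 and 75.5% (adjusted p = 0.00462). There CRD library 4 was above URD libraries 1 and 2. The CpG at 29496528 was not called (adjusted p = 0.0966), with 44.0% in CRD library 4 against 25.5 and 26.9% in URD libraries 1 and 2.

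The 12 CpGs are not independent. Reads per CpG varied within a library by at most 4 across the stretch, with 71 to 75 reads in CRD library 1 and 23 to 25 in CRD library 4, and with 67 to 68 in URD library 2 and 40 to 41 in URD library 3, and the 91 bp are shorter than a 100 bp read. CRD library 4, the highest of its group, had the fewest reads, and the part of its depth in its level was not tested. By strand, the reverse-strand cytosines averaged 10.7% ± 1.95 in CRD and 40.1% ± 24.8 in URD. Those on the forward strand averaged 14.9% ± 16.9 in CRD and 38.7% ± 17.8 in URD at 7 to 47 reads, and CRD library 4 stood at 40.1% on that strand, against 9.38% on the reverse one. On the forward strand it was above URD libraries 1 and 2, at 29.6 and 18.3%, so the groups overlapped there. They did not on the reverse strand, where CRD library 2 had 12.9% and URD library 1 had 14.4%.

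**Figure D3:**
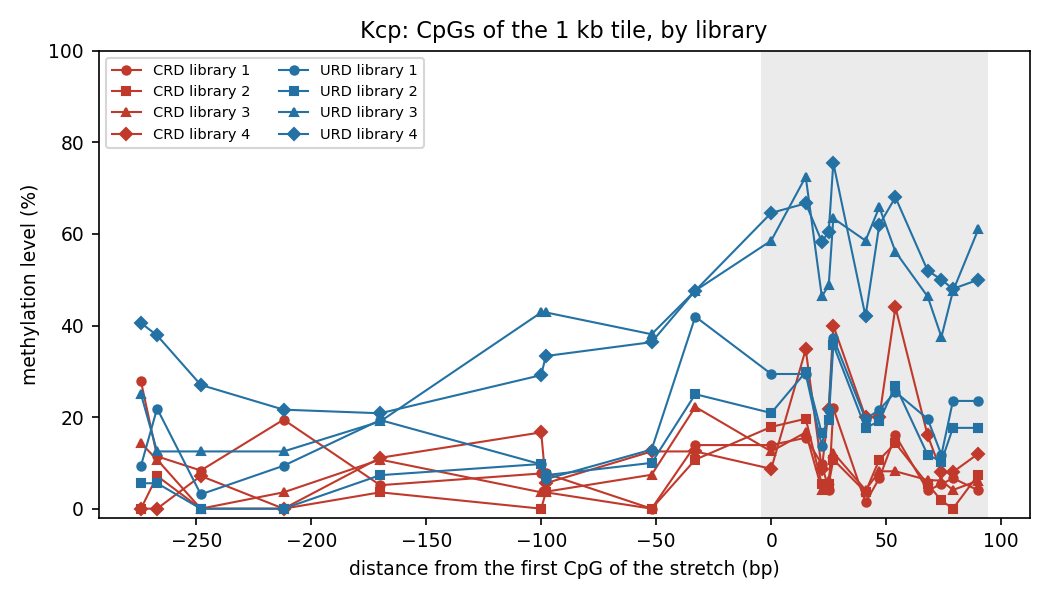
Methylation level (%) of each measured CpG in the 1 kb tile of Kcp against its distance from the first CpG of the stretch (bp), 1 line per library, CRD red and URD blue; the stretch is shaded. URD libraries 3 and 4 run above all other libraries within the stretch, while URD libraries 1 and 2 lie close to CRD library 4.

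The difference was not confined to the stretch. The 9 other CpGs of the same tile, on one side of it, averaged 7.45% ± 3.53 in CRD and 20.9% ± 11.5 in URD, and all 9 were lower in CRD without a call. The whole tile (chr6:29496001-29497000, 21 CpGs) had 9.62, 7.28, 8.05 and 16.1% in CRD and 20.4, 16.6, 48.6 and 50.1% in URD. It differed by -23.7 points, the largest absolute difference among all 33897 tested tiles, but its adjusted p was 0.303. The URD SD of the tile was 17.9, against a median of 4.30 in the 5314 tiles between 20 and 80%, and 10 tiles, this one included, had a dispersion (the spread between libraries relative to counting error) at least as large. Before moderation across units the dispersion was 70.9 for the tile and 3.78 to 7.56 for the 12 CpGs, and after it 27.1 for the tile and 1.3 to 1.81 for the CpGs. The p-values thus rest on a smaller spread than the libraries showed at these units. The tile adds up the reads of 21 CpGs, 434 to 1216 per library, against 23 to 75 per CpG. The CpG calls in Kcp ended when the dispersion was not moderated, in limma on M-values and with the replicate number as a block (0 member calls each). Without URD library 4, 5 were left. The tile was called without URD library 2 (adjusted p = 0.0100) and in edgeR's quasi-likelihood test (adjusted p = 1.86e-09). How many of all tiles edgeR called is not given here.

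Elsewhere in Kcp the groups were close. The 24 CpGs 8 to 404 bp downstream of the start had 0.0976% ± 0.131 in CRD and 0.173% ± 0.182 in URD. A cluster of 3 CpGs between start and stretch, 5440 to 5472 bp downstream, had 86.4% ± 3.62 in CRD and 88.9% ± 1.76 in URD. The 12 CpGs near the 3′ end had 0.269% ± 0.398 in CRD and 0.287% ± 0.250 in URD. The tile with the stretch was the one measured part of Kcp at intermediate levels. The lncRNA Gm26627 overlaps the Kcp start but not the stretch.

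Among the ligands, the tile with the smallest p was in Tgfb1, the founding TGF-β. At chr7:25704001-25705000 it had 1.22, 1.39, 1.02 and 0.722% in CRD, against 0.191, 0.705, 0.179 and 0% in URD. The groups did not overlap, though CRD library 4 and URD library 2 were 0.722 and 0.705% (adjusted p = 0.735). Gdf7, a BMP family ligand known from the nervous system, had the second largest difference of the members. Its tile of 3 CpGs at chr12:8304001-8305000 had 68.9, 63.6, 66.7 and 66.7% in CRD, against 75.9, 74.5, 86.3 and 81.7% in URD. The difference was -13.1 points at 33 to 102 reads per library, summed over the 3 CpGs (adjusted p = 0.737). Bmp1, which is a procollagen protease rather than a family ligand, had 89.0% ± 2.73 in CRD and 92.7% ± 2.25 in URD at chr14:70522001-70523000 (adjusted p = 0.756).

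Bmp4, whose mesenchymal signal restrains ureteric budding, had its smallest p in a tile of 23 CpGs inside the gene, with 0.0332% ± 0.0396 in CRD and 0.214% ± 0.150 in URD (adjusted p = 0.760). A second Bmp4 tile, at chr14:46379001-46380000, varied widely in both groups, with 29.8, 13.7, 18.6 and 24.3% in CRD and 15.7, 25, 26.9 and 17.1% in URD. Bmp7 had its smallest p in a tile at 12.3, 4.76, 4.32 and 15.5% in CRD and 3.81, 9.05, 8.23 and 8.00% in URD (adjusted p = 0.912). Neither gene's groups stood apart. Over its whole region Bmp7 had 7.47% ± 0.113 in CRD and 7.41% ± 0.303 in URD. The Tgfb2 tile of smallest p had methylated reads in CRD library 2 alone, at 1.32%.

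The remaining ligands with data were as close. Gene-wide levels were 12.8% ± 0.900 in CRD and 11.9% ± 0.723 in URD for Bmp8b, and 22.6% ± 2.71 in CRD and 22.2% ± 1.66 in URD for Gdf10, which signals apart from the classical BMPs. They were 7.73% ± 1.2 in CRD and 7.73% ± 0.871 in URD for Inhba, which encodes an activin subunit. Bmp2, Bmp3, Gdf6, Gdf11 and Inhbb were under 1% in both groups, and Bmp6, Bmp4, Tgfb2, Gdf7, Bmp8a, Tgfb3 and Tgfb1 lay between 2.36 and 8.72%. Bmp1 was at 24.6% ± 2.12 in CRD and 26.0% ± 0.377 in URD. Means over a gene's region carry no test.

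**Figure D4:**
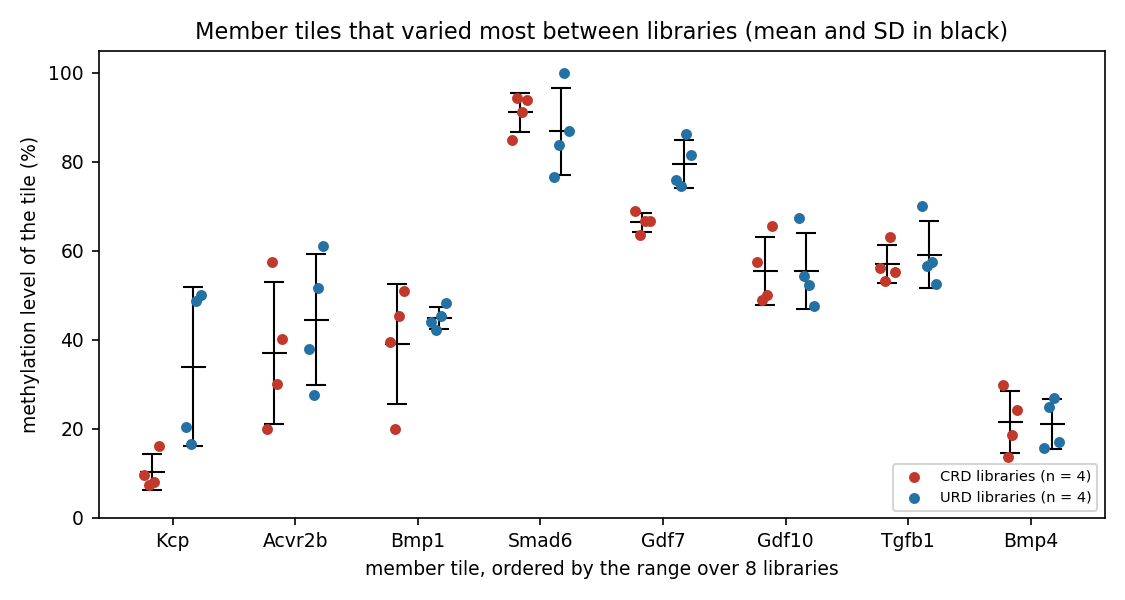
Methylation level (%) in each library of the 8 member tiles with the widest range over the 8 libraries, with CRD (red) left of URD (blue); black lines give the mean and SD of 4 libraries. Kcp and Gdf7 have groups that do not overlap, and Acvr2b ranges from 20.1 to 57.4% in CRD and from 27.7 to 61.1% in URD.

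The receptors gave no tile at an unadjusted p under 0.05 among 22 tested, where 6.32% of all tiles had one. The widest spread was in Acvr2b, a type II receptor for activins and some BMPs. Its tile at chr9:119418001-119419000 had 20.1, 57.4, 30.2 and 40.3% in CRD and 37.8, 27.7, 51.6 and 61.1% in URD. The ranges overlapped almost completely (37.0% ± 15.9 in CRD and 44.6% ± 14.7 in URD, adjusted p = 0.773). The difference of -7.58 points ran from -14.4 to -1.94 points without 1 library each. Its libraries thus ranged widely in both groups, whereas those of Kcp did so in URD. Another Acvr2b tile, over the gene start, had 0% in CRD and 0.0513% ± 0.0607 in URD. In their tiles of smallest p, the type II receptor Acvr2a had 0% in CRD and 0.410% ± 0.517 in URD, and the type II BMP receptor Bmpr2 0.0197% ± 0.0229 in CRD and 0.0549% ± 0.0235 in URD. Bmpr1a, a type I BMP receptor, had 0% in CRD and 0.109% ± 0.126 in URD in its tile (adjusted p = 0.773). Gene-wide, Tgfbr1 was the member with the highest level, 95.7% ± 2.05 in CRD and 94.7% ± 2.95 in URD, but over 4 CpGs within the gene. Acvr1 had no methylated read in its 12 CpGs. Bmpr1a and Bmpr2 were under 1% gene-wide in both groups. The type I receptors Bmpr1b and Acvr1b, the type II receptors Tgfbr2, Acvr2a and Acvr2b, and the co-receptor Tgfbr3 lay between 2.47 and 9.67%.

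Among the antagonists other than Kcp, Nog, the BMP-binding protein noggin, had 0% in CRD and 0.129% ± 0.0879 in URD in its tile of smallest p (adjusted p = 0.773). Grem1 had methylated reads in CRD library 1 alone, at 0.260%, in its only tile. Fst, which binds activins, had 0.0613% ± 0.0494 in CRD and 0.1% ± 0.0794 in URD over its region. Chrd (chordin) had 5.80% ± 0.188 in CRD and 5.76% ± 0.577 in URD, and Bmper, a chordin-like regulator, 4.39% ± 0.0999 in CRD and 4.37% ± 0.237 in URD.

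In the Smads, the smallest p was in Smad3, which carries the TGF-β and activin signal. Its tile at chr9:63755001-63756000, inside the gene towards its 5′ end, had 32.4, 24.9, 26.0 and 29.5% in CRD, against 21.5, 25.3, 22.1 and 22.1% in URD. The means were 28.2% ± 3.44 in CRD and 22.7% ± 1.71 in URD, and the groups overlapped through CRD library 2 and URD library 2 (adjusted p = 0.735). Smad1 was at 77.3% ± 6.39 in CRD and 80.2% ± 1.89 in URD in the tile of smallest p (adjusted p = 0.773). The Smad6 tile of 56 CpGs had 0% in CRD and 0.0466% ± 0.0545 in URD. Smad4, the shared partner, had methylated reads in CRD library 1 alone, at 0.181% in its tile. Gene-wide, Smad2, another TGF-β branch Smad, had 6.31% ± 0.0233 in CRD and 5.98% ± 0.155 in URD. Smad3 was at 16.4% ± 0.594 in CRD and 15.7% ± 0.555 in URD, and Smad1 at 13.9% ± 0.279 in CRD and 14.0% ± 0.328 in URD. Both were above the mean of all gene regions. Smad7, an inhibitory Smad, had 8.05% ± 0.293 in CRD and 8.36% ± 0.398 in URD. Smad5 and Smad9, of the BMP branch, were under 0.2% in both groups, and Smad6 and Smad4 lay between 1.83 and 2.52%.

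The Id genes, which encode inhibitors of bHLH factors, were the least methylated class. Id2 had 0.249, 0.641, 0.476 and 0% in CRD in a tile of 6 CpGs, against 0% in each URD library (adjusted p = 0.773). Its groups met at 0%. Id3 had 0% in CRD and 0.0788% ± 0.0914 in URD in the tile over its start, and Id4 had 0.05% ± 0.0581 in CRD and 0.0951% ± 0.0498 in URD in its tile of smallest p. Gene-wide, Id3 was the highest at 1.09% ± 0.473 in CRD and 1.39% ± 0.263 in URD.

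Outside Kcp, the member CpG with the smallest p was in the Smad3 tile described above, at 63755186. It had 12.2, 9.52, 5.26 and 6.67% in CRD, against 0, 0, 0 and 3.03% in URD, at 15 to 41 reads (adjusted p = 0.462). The second smallest p was at a Tgfb1 CpG, 25688726, with 0% in every CRD library and 5.88 to 7.89% in the URD libraries (adjusted p = 0.51). This CpG was lower in CRD and lies outside the Tgfb1 tile described above, which was higher in CRD. An Acvr2b CpG at 119407304 had 88.2, 100, 94.7 and 93.3% in CRD, against 74.3, 84.6, 63.2 and 85.7% in URD (adjusted p = 0.622). In each of these the groups did not overlap, as in 13 of 716 member CpGs (1.82%), against 1.8% of all CpGs. At an unadjusted p under 0.05 there were 44 (6.15%), against 5.62% of all CpGs. Both counts include Kcp: 6 of the 13 lay in its tile with the stretch. The 44 include all 12 CpGs of the stretch and further Kcp CpGs outside it. They therefore do not describe the members outside Kcp.

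The pathway beyond these genes was read from 59 further ligands, receptors, regulators and targets. None of their 144 tested tiles, 764 CpGs or 29 windows was called by the logistic model, where 0.0177% of all tiles, 0.0997% of all CpGs and 0.124% of all windows were. An unadjusted p under 0.05 was found in 6 tiles (4.17%), against 6.32% of all tiles. Of the tiles 64 were higher and 80 lower in CRD (55.6% lower), against 51.9% lower among all tiles. The largest difference, named after its values were seen, was in Ltbp4, which encodes a binding protein of latent TGF-β, in a tile of 3 CpGs at chr7:27307001-27308000. It had 44.2, 35.2, 42.5 and 26.1% in CRD, against 55.9, 58.3, 69.4 and 53.3% in URD. The groups did not overlap, and the difference of -22.2 points was close to that of the Kcp tile in size and in its adjusted p of 0.303.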

How the data were processed

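DNA methylation of sorted nephron progenitors was measured by RRBS in 8 libraries. Per the labels' protocols, 20 ng of DNA per library went into 100 bp paired-end sequencing, with samples spread over several lanes. Per the submitters' processing notes, the tools were FastQC, cutadapt, Bismark 0.13.1, Trim Galore 0.3.3 and methylKit, and the build was mm10. No source used here gave their order and settings. The deposited files give for each cytosine a read count and the percent of these reads called methylated or unmethylated. The product of both, rounded, gave the methylated reads. PCR copies cannot be removed in RRBS, so limits that a count of 0 allows cover counting error only. They also treat the CpGs of one read as independent.

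Strands were added, and autosomal CpGs that reached 10 reads in every library were kept. Gene positions came from RefSeq (GRCm38.p6, the coordinates of mm10). No genome sequence and no exon annotation were used. All 66114 measured CpGs that lay in RefSeq start sequences fell on a CG.

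The model was a logistic regression on reads with a diet term, a likelihood-ratio F test, and a Pearson dispersion moderated as in limma's squeezeVar (a Python port) and not under 1. It was fitted to 33897 tiles, 191637 CpGs and 11335 windows that had both methylated and unmethylated reads, with Benjamini-Hochberg adjustment over each and calls at 0.05. It was tried on simulated counts with the same dispersion at every unit, smaller than that of the Kcp CpGs and tile before moderation. That trial therefore does not speak about the Kcp calls. limma 3.58.1 (M-values, log2 with 1 read added to each count) and edgeR 4.0.16 were alternatives. Others were coverage minimums, tile sizes, windows, region limits, a replicate block, and fits without each library in turn.

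Members, lists and the stretch were chosen with earlier results of these data known. Named are Kcp, members with a call, in each role the 3 with the smallest tile p, the 3 tiles of largest difference, the 3 most methylated windows, and Bmp4, Bmp7, Bmpr1a, Smad4, Smad1, Grem1, Tgfb2 and Id1. Gene-wide levels of the other members, the single CpGs outside Kcp and the most variable tiles were added to account for all members. Python 3.11.15 and R 4.3.3 were used.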

Additional observations from a re-analysis of the deposited data

Results flagged for a closer look

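In groups of 4 libraries, a library was marked where its gap to the nearest other one took up nearly the whole range of the group. Of 83 groups examined 16 were marked, where chance gives about 1 in 20, and most of these levels rest on a few methylated reads.

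In Kcp, CRD library 4 stood above the other CRD libraries in the mean of the stretch, at 20.2% against 7.90 to 9.10%. It did so at the CpG at 29496499, with 21.7% against 4.17 to 6.25%, and at 29496515, with 20.0% against 1.35 to 4.08%. In the Smad3 tile, URD library 2 had 25.3%, against 21.5 to 22.1% in the other URD libraries.

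CRD library 1 stood apart in 7 groups. It had 2.26% in the Bmp8a window, 0.260% in the Grem1 tile, 0.181% in the Smad4 tile, 0.308% in the Tgfb2 window, 0.0958% in the Smad1 window and 0.0967% in the Smad4 window. In the Bmp7 window it was the lowest, at 0.0439%. CRD library 2 had 1.32% in the Tgfb2 tile and CRD library 3 had 0.111% in the Bmpr1a window. URD library 2 had 0.170% in the Id4 tile and 0.183% in the Tgfb2 window, and URD library 4 had 0.0639% in the Smad4 window. In the tiles of Grem1, Smad4 and Tgfb2 and the windows of Tgfb2, Smad1, Bmpr1a and Smad4, the other libraries of the group were at 0%.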

How the results depend on the processing

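Of 754 values of 41 named units under the alternatives, 673 kept their direction and side of the threshold, 9 were differences of 0 with no p, 47 were no longer called (all at Kcp CpGs), 2 became called (the Kcp tile) and 23 changed sign. Where only the test changed, as in limma and edgeR, the difference was that of the main fit. For those values only the side of the threshold could change. The Kcp stretch difference ran from -34.0 to -21.4 points over fits without 1 library. Member tiles called ranged from 0 to 1 without 1 library each and came to 1 with edgeR, whose calls over all tiles are not given here. Over all tiles, 6 of 33897 were called in the main fit and 20 of 33283 without URD library 2, where the Kcp tile was called. Over all CpGs, 191 of 191637 were called in the main fit, 134 of 184461 without URD library 4 and 746 of 182476 without URD library 2. Member CpGs called ranged from 5 (without URD library 4) to 16 (without URD library 2, 15 of them in Kcp and 1 in Acvr2b at 119407263, with 11.8, 85.7, 31.6 and 20% in CRD and 60, 1.92, 84.2 and 71.4% in URD), and came to 0 with the dispersion not moderated and with limma. The replicate number as a block also gave 0 member CpGs; numbers shared between groups did not pair the libraries (correlations of -0.0995 to 0.0299 over 5314 tiles), and CRD library 4 alone correlated best with its own number. Member windows gave 0 calls throughout. With at least 20 reads per CpG, antagonists differed by -3.43 and Smads by 0.143 points; weighted by reads, Smads differed by -0.540, ligands by -0.360 and receptors by -0.598. The cause was not tested.

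All 23 sign changes were at uncalled differences. Over the fits without 1 library, the difference ranged from -0.132 to 3.59 points in the Bmp7 tile, from -0.0458 to 0.0769 in the Tgfb2 window, from -0.00287 to 0.0249 in the Bmp7 window, from -0.337 to 0.434 in the Bmp8a window, from -4.09 to 0.0747 in the Tgfb3 window, from -0.0363 to 0.00408 in the Bmpr1a window and from -0.0160 to 0.0242 in the Smad4 window. Without CRD libraries 1 and 2 the Tgfb2 (-0.0458), Bmp8a (-0.187), Bmpr1a (0.0190) and Smad4 (-0.0160) windows and the Id4 tile (0.00491) changed sign. With at least 5 reads the Bmp8a (-0.530), Bmpr1a (0.00962) and Smad4 (-0.00463) windows and the Smad4 tile (-0.00106) did, and with at least 20 reads the Id4 tile (0.0515). Levels of single CpGs rest on a median of 20 to 44 reads per library.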
